A study of Mus musculus with 12 samples.

Results

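The mitochondrial carriers are a family of membrane proteins that move nucleotides, coenzymes, carboxylic acids, amino acids and inorganic ions across the inner mitochondrial membrane, and the uncoupling proteins are members of it. The mouse genes of the family were taken by symbol: every Slc25a gene with a number, plus Ucp1, Ucp2 and Ucp3, among the probe sets that name 1 gene. Each gene was represented by the probe set with the highest mean signal over the 12 arrays. This gave 46 genes of the 18194 tested, made up of 44 Slc25a genes, Ucp1 and Ucp3, read from 96 probe sets in all. Ucp2, Slc25a21, Slc25a43 and Slc25a52 were not analysed here.

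RNA came from whole gastrocnemius muscle, the large fast calf muscle, and was hybridised to 1-colour Affymetrix arrays. The 4 groups had 3 arrays each. The KO old group was 24 months old and the KO young group 10 weeks old, both labelled as lacking PGC-1alpha in muscle through a Cre recombinase driven by myogenin, a gene of differentiating muscle. The WT old group was 24 months old and the WT young group 10 weeks old, and the stated background of all 4 groups was C57Bl/6N/6J/129. With myogenin-cre, cells of the tissue that are not of the muscle lineage keep the gene. The labels do not say whether the wild-type mice carried the floxed allele or the Cre, and they name no sex, litter or batch. Nothing in them says that the arrays of a group came from separate animals, so the spread behind each p-value is that of these arrays and could be technical. In whole muscle, fewer cells of a type and less RNA per cell cannot be told apart.

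PGC-1alpha, encoded by Ppargc1a, is a coactivator that raises the transcription of nuclear genes for mitochondria together with the oestrogen-related receptors. Carriers supply the matrix with ADP, phosphate and substrates: the ADP/ATP and phosphate carriers serve ATP synthase, the aspartate/glutamate and oxoglutarate/malate carriers make up the membrane part of the malate-aspartate shuttle, and the carnitine/acylcarnitine carrier brings in fatty acids. Ucp3 is the uncoupling protein of skeletal muscle and is raised in muscle by fasting and fatty acids, whereas Ucp1 is the heat-producing uncoupler of brown fat.

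All values are log2 RMA signals, so 1 unit is a doubling, and a probe set's level is compared only with its own level on other arrays. A difference was called when limma's adjusted p (Benjamini-Hochberg over all 18194 genes) was below 0.05; errors written after a difference are limma standard errors. Probe sets other than a gene's brightest were fitted and adjusted separately, among all probe sets except the controls. The median signal of all probe sets was 6.22. It lay above the mean of 9 of the 46 carriers, and a difference between 2 such signals has no fold.

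The arrays had medians of 6.19 to 6.25, and arrays of 1 group correlated at 0.988 to 0.997. KO old array 1 stood apart on the first principal component, at 42.6, against 19.3 and 15.7 for the other KO old arrays, and between -22.5 and 10.6 for the arrays of the other groups. The brightest Ppargc1a probe set read 12.06, 11.84 and 12.33 in KO old, 12.09, 11.76 and 11.50 in WT old, 11.14, 11.48 and 12.10 in KO young and 10.77, 11.17 and 11.18 in WT young muscle. It was not lower in the arrays labelled KO: over both ages the 5 Ppargc1a probe sets differed by 0.36 to 0.48, KO minus WT, and none was called. Their position relative to the deleted exons is not given in the sources used here, so they do not check the labels, and every direction below rests on those labels. The 11 muscle fibre markers, among them Ckm and Acta1, averaged 14.61 or more on every array.

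**Figure D1:**
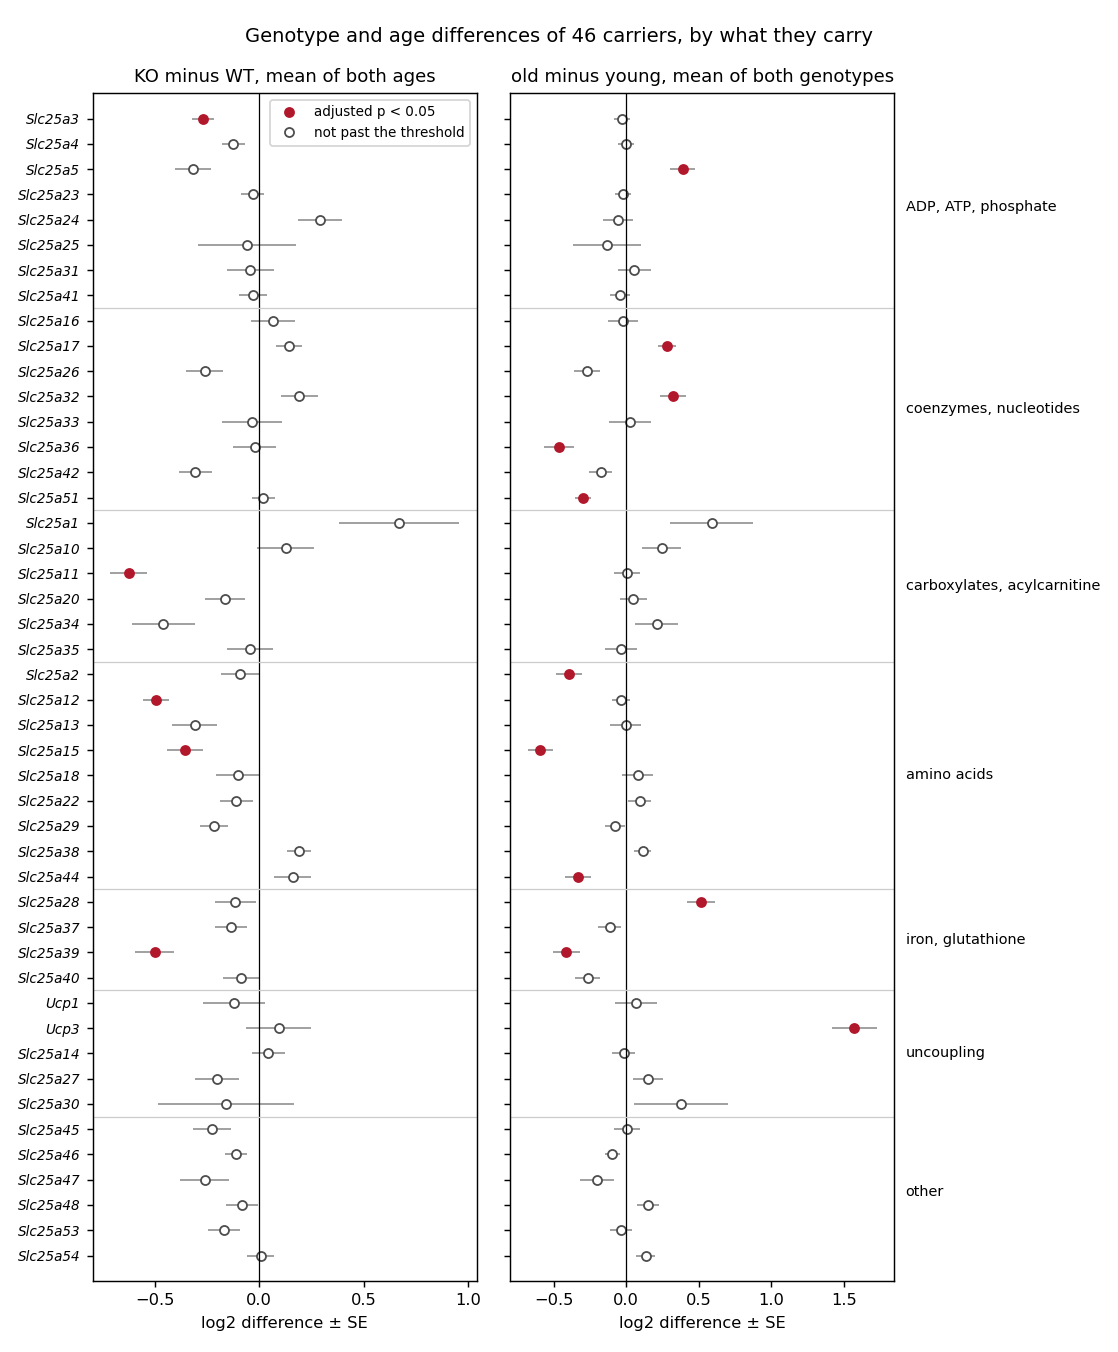
Log2 differences of the 46 carriers with limma standard errors (bars), KO minus WT averaged over both ages on the left and old minus young averaged over both genotypes on the right, grouped by assigned role. Filled points passed an adjusted p of 0.05: 5 carriers on the left, all at negative differences, and 11 on the right, with Ucp3 farthest from 0 at 1.57.

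The promoters of the 3 genes that the results below return to most often are shown to set their base composition side by side. They run from 250 bases before to 50 bases after the start site in RefSeq's GRCm38.p6 table, 5′ to 3′ on the gene's strand, with each CG dinucleotide in capitals. Slc25a12 lies at chr2:71367706-71368005 on the minus strand, Slc25a11 at chr11:70646990-70647289 on the minus strand and Ucp3 at chr7:100472741-100473040 on the plus strand.
Slc25a12: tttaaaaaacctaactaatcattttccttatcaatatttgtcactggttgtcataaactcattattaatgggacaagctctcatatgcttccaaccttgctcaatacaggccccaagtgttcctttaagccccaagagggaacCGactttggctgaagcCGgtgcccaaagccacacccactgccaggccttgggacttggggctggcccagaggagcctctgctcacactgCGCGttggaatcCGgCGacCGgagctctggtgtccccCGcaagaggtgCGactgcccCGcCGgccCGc
Slc25a11: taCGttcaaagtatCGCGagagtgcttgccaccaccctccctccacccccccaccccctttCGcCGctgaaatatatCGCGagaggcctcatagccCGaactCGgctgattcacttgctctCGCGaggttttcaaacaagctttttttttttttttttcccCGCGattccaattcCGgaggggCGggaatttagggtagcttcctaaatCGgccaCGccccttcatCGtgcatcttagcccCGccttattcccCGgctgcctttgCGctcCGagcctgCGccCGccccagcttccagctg
Ucp3: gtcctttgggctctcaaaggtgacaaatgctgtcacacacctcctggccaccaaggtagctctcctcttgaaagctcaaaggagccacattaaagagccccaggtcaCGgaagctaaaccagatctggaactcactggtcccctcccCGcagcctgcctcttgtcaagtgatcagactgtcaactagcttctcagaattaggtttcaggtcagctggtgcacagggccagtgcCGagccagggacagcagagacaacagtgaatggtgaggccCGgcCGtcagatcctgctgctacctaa
Slc25a12 and Slc25a11, the carrier pair of the malate-aspartate shuttle, had 12 and 24 CG dinucleotides in this window, and Ucp3 had 5. The median was 15 over the carriers' promoters and 7 over all promoters of the table.

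A match to the core of the element bound by oestrogen-related receptors, AAGGTCA on either strand, was found in 1 of the 45 promoters of the 36 carriers with an entry (2.22%), against 1550 of all 32851 promoters (4.72%). Its longer form, TNAAGGTCA, which overlaps it, was in 0 of the 45 and in 1.28% of all promoters. The match was in Slc25a34, a carrier without an established substrate, at chr4:141623785-141624084 on the minus strand. It is printed with the match in capitals, which here is on the strand opposite to the gene.
Slc25a34: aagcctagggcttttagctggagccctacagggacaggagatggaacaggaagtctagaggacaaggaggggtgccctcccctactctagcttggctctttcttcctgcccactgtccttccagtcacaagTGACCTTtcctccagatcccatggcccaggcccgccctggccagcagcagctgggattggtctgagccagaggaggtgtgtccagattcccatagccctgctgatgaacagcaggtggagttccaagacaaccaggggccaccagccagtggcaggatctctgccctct
The match began 119 bases before the start site. No match says only that these letters are not in this window.

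Averaged over both ages, 5 of the 46 carriers were lower in muscle labelled KO and none was higher. The 5 were Slc25a12, Slc25a11, Slc25a39, Slc25a3 and Slc25a15, with differences of -0.27 to -0.62 on the log2 scale. They make up 10.9% of the carriers, where 4.22% of all genes were called. The difference was negative in 34 of the 46 carriers and in 53.3% of all genes, with medians of -0.11 and -0.01. An unadjusted p below 0.05 was reached by 20 carriers. The share of all genes at that cut was not counted, so this and later counts at that cut only describe the carriers.

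In young muscle, 0 of 46 carriers passed limma's test between KO and WT, where 0.192% of all genes did, and 8 had an unadjusted p below 0.05. In old muscle 2 carriers passed, 4.35% against 1.32% of all genes, and both were lower in KO. They were Slc25a12 and Slc25a11. The median over the carriers was -0.17 in old and -0.08 in young muscle, against -0.02 and -0.01 over all genes. The test of the difference between the ages, the interaction, called 0 carriers and 0% of all genes, and 3 carriers had an unadjusted p below 0.05. Without KO old array 1, which enters the young comparison only through the spread that all groups share, Slc25a11 was called lower in KO young muscle (adjusted p = 0.0164), and the calls over all genes were 173, against 35 with it.

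Both carriers of the malate-aspartate shuttle that lay above the background range were lower in KO. Slc25a12 is the aspartate/glutamate exchanger of muscle and brain. Its signal was 12.46, 12.54 and 12.78 in KO old, 13.24, 13.27 and 13.25 in WT old, 12.83, 12.79 and 12.75 in KO young and 13.05, 13.15 and 13.17 in WT young muscle. All 6 KO arrays lay below all 6 WT arrays, and the KO old arrays were more spread than the WT old ones. The difference was -0.49 ± 0.06 over both ages, 1.41-fold lower in KO (adjusted p = 0.00173), and -0.66 ± 0.09 in old muscle, 1.58-fold lower (adjusted p = 0.00813). In young muscle it was -0.33 ± 0.09 (adjusted p = 0.199), and the interaction was -0.33 ± 0.13 (unadjusted p = 0.0235, adjusted p = 0.871). A fit to the old groups alone, which called 0 of all 18194 genes, gave an adjusted p of 0.110 for the old comparison. The 2 other Slc25a12 probe sets differed by -0.43 and -0.78 over both ages, and 1 of them was called.

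Slc25a11, which exchanges oxoglutarate for malate, read 11.28, 11.69 and 11.86 in KO old, 12.32, 12.35 and 12.32 in WT old, 11.80, 11.62 and 11.67 in KO young and 12.15, 12.29 and 12.25 in WT young muscle. Here too no KO array reached the lowest WT array. The difference was -0.62 ± 0.09 over both ages, 1.54-fold lower in KO (adjusted p = 0.00326). It was -0.72 ± 0.13 in old muscle, 1.64-fold lower (adjusted p = 0.0197), and -0.53 ± 0.13 in young muscle (adjusted p = 0.131). In old muscle the call was lost without WT old array 1, 2 or 3 (adjusted p = 0.0582, 0.0800 and 0.0929) and in a fit to the old groups alone (adjusted p = 0.166). Those settings also called fewer of all genes, 109, 39, 28 and 0, against 241.

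Slc25a13, the aspartate/glutamate exchanger best known from liver, was near background. Its signals were 4.69, 4.76 and 5.08 in KO old, 4.94, 5.39 and 5.60 in WT old, 5.11, 5.01 and 4.90 in KO young and 5.22, 5.11 and 5.13 in WT young muscle. The groups overlapped at old age, and the difference over both ages did not pass (adjusted p = 0.118).

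The shuttle's enzymes, listed as aspartate aminotransferases Got1 (cytosol) and Got2 (matrix) and malate dehydrogenases Mdh1 (cytosol) and Mdh2 (matrix), were set beside the carriers. Of the 7 shuttle genes, 6 were called lower in KO over both ages, 5 in old and 2 in young muscle. Of all genes, 4.22%, 1.32% and 0.192% were called in these comparisons. Between the ages 0 of the 7 were called on the brightest probe sets, in either genotype or on average. Of all genes, 3.62% were called with age in WT muscle, 10.3% in KO muscle and 16.2% on average. The other Slc25a12 probe sets were called with age, as given below. All 7 genotype differences were negative at both ages, against 52.1% of all genes in young and 53.9% in old muscle. Got2 read 13.03, 12.87 and 13.05 in KO old, 13.78, 13.89 and 13.84 in WT old, 12.83, 12.92 and 13.05 in KO young and 13.62, 13.84 and 13.74 in WT young muscle. The KO and WT arrays did not overlap at either age, and the difference over both ages was -0.83 ± 0.07 (adjusted p = 8.3e-05). Got1 differed by -0.75 ± 0.08 (adjusted p = 0.000751), Mdh2 by -0.42 ± 0.05 (adjusted p = 0.00163) and Mdh1 by -0.29 ± 0.06 (adjusted p = 0.0195). The young calls were Got2 at -0.80 ± 0.09 (adjusted p = 0.00481) and Got1 at -0.75 ± 0.12 (adjusted p = 0.0304).

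**Figure D2:**
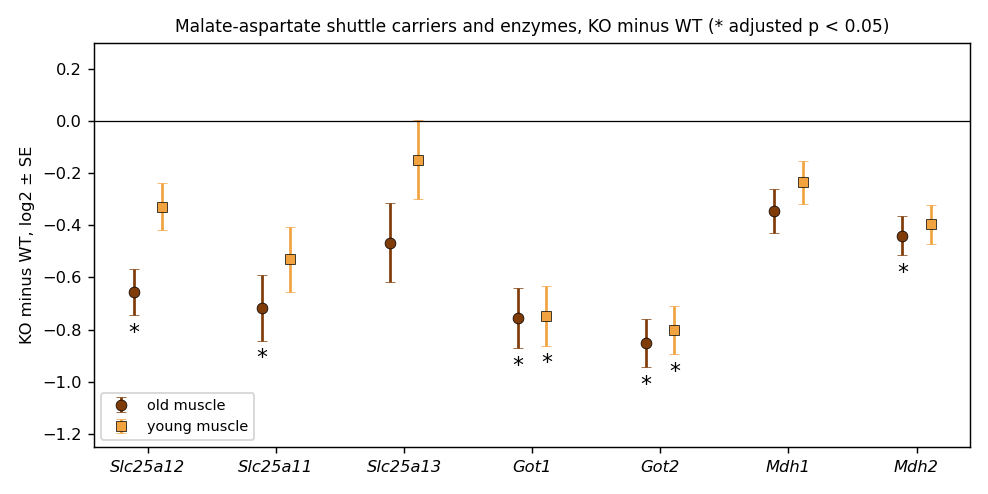
Log2 differences, KO minus WT, of the 7 malate-aspartate shuttle genes with limma standard errors (bars), in old muscle (circles) and young muscle (squares). Every point lies below 0, and asterisks mark the differences that passed an adjusted p of 0.05, for 5 genes in old and 2 in young muscle.

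Slc25a39, which imports glutathione into mitochondria, differed with both genotype and age. It read 11.61, 11.62 and 11.94 in KO old, 11.99, 12.42 and 12.15 in WT old, 12.06, 12.01 and 12.22 in KO young and 12.48, 12.77 and 12.66 in WT young muscle. At each age the KO arrays lay below the WT arrays, and WT old arrays overlapped KO young ones. The genotype difference over both ages was -0.50 ± 0.09, 1.41-fold lower in KO (adjusted p = 0.0134), and its 4 other probe sets gave -0.31 to -0.38, of which 2 were called. Of the related carriers in the same role list, Slc25a40, which also takes part in glutathione import, and the iron importers Slc25a28 and Slc25a37 did not pass (-0.09, -0.11 and -0.14).

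Slc25a3 brings phosphate, and also copper, into the matrix. Its signals were 14.35, 14.39 and 14.51 in KO old, 14.70, 14.68 and 14.73 in WT old, 14.49, 14.46 and 14.45 in KO young and 14.68, 14.74 and 14.74 in WT young muscle. No KO array overlapped a WT array, but the step was small, -0.27 ± 0.05 or 1.21-fold lower in KO (adjusted p = 0.0158). Its other probe set gave -0.26, which was not called.

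Slc25a15 is the ornithine carrier of the urea cycle and of polyamine and proline metabolism. It read 8.93, 9.26 and 9.45 in KO old, 9.69, 9.78 and 9.71 in WT old, 9.84, 10.00 and 10.05 in KO young and 10.06, 10.17 and 10.24 in WT young muscle. The 4 groups followed each other without overlap, and the KO old arrays were lowest. The genotype difference over both ages was -0.35 ± 0.09, 1.28-fold lower in KO, and passed narrowly (adjusted p = 0.0407). It lost its call when any single array other than KO old 1, KO old 3 and WT young 1 was left out (adjusted p = 0.0616 to 0.0979), and its other probe set gave -0.13, which was not called.

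**Figure D3:**
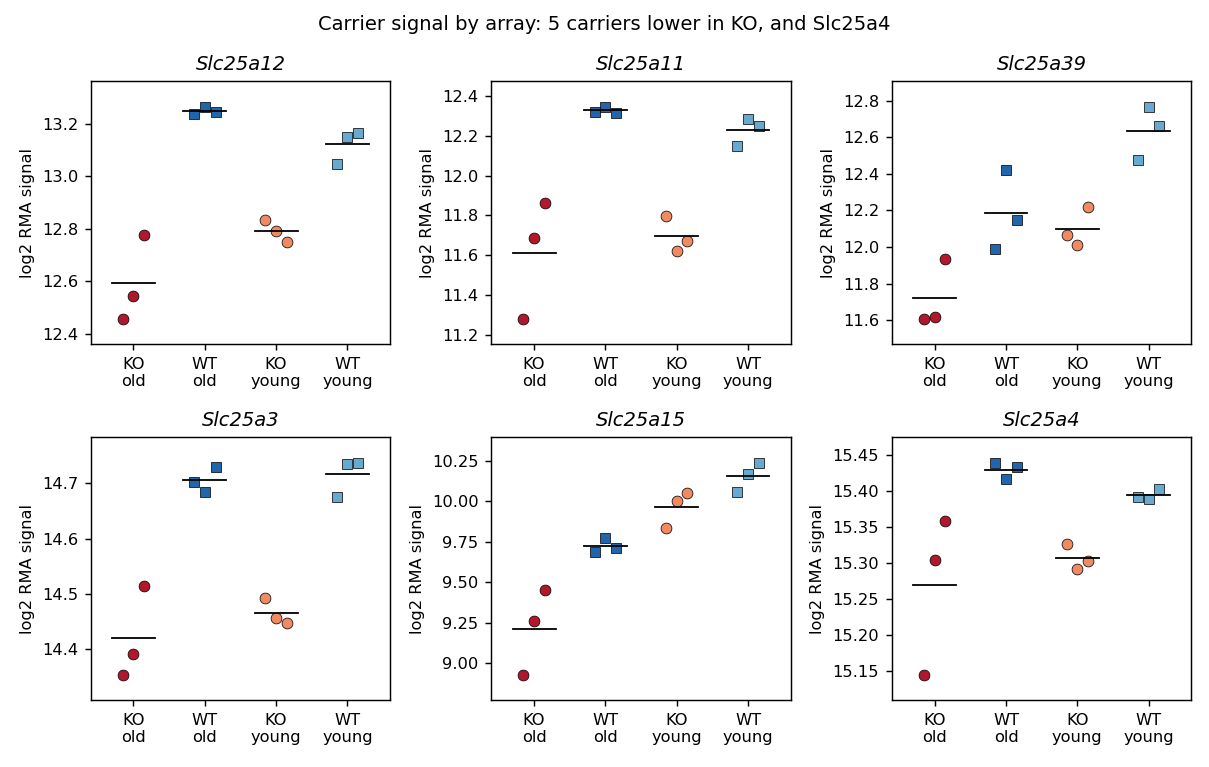
Log2 RMA signal on each array for the 5 carriers that were lower in KO over both ages and for Slc25a4, with horizontal lines at the group means and a separate scale in each panel. Arrays labelled KO (circles) lie below the WT arrays (squares) of the same age in all 6 panels, and the Slc25a4 panel spans the smallest range.

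The adenine nucleotide exchangers did not pass on their brightest probe sets. Slc25a4, the heart and muscle form, read 15.14, 15.30 and 15.36 in KO old, 15.44, 15.42 and 15.43 in WT old, 15.33, 15.29 and 15.30 in KO young and 15.39, 15.39 and 15.40 in WT young muscle. KO arrays were below WT arrays at each age, yet the difference of -0.12 ± 0.05 did not pass (adjusted p = 0.193). These signals lie just under the highest value on any array, 15.95. A dimmer Slc25a4 probe set gave a different answer: it was 8.63, 8.88 and 9.09 in KO old, 9.68, 9.75 and 9.51 in WT old, 9.36, 9.56 and 9.39 in KO young and 9.77, 9.69 and 9.93 in WT young muscle. On that probe set the difference over both ages was -0.57 (adjusted p = 0.00688), and -0.78 in old muscle (adjusted p = 0.0175).

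Slc25a5, the more widely expressed ADP/ATP exchanger, was 11.52, 11.08 and 11.11 in KO old, 11.55, 11.55 and 11.48 in WT old, 10.98, 10.71 and 10.77 in KO young and 11.30, 11.14 and 11.04 in WT young muscle. The genotype difference was -0.32 ± 0.09 (adjusted p = 0.0629) and was negative on all 8 probe sets of the gene. Of those, 6 are of a type that can also bind related transcripts.

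Slc25a20, the carnitine/acylcarnitine carrier of fatty acid oxidation, was 11.89, 11.45 and 11.72 in KO old, 11.66, 11.66 and 11.86 in WT old, 11.50, 11.58 and 11.47 in KO young and 11.53, 11.94 and 11.93 in WT young muscle. KO and WT overlapped at both ages, and no comparison called it (-0.16 over both ages, adjusted p = 0.306). Ucp3 did not differ by genotype beyond its spread either (0.09 ± 0.15, adjusted p = 0.741). Slc25a42, which carries coenzyme A, differed by -0.31 (adjusted p = 0.0533) and Slc25a34 by -0.46 ± 0.15 (adjusted p = 0.101). Slc25a34 read 9.06, 8.32 and 9.05 in KO old, 8.97, 8.94 and 9.23 in WT old, 8.45, 8.62 and 8.07 in KO young and 8.73, 9.20 and 9.25 in WT young muscle, so its KO and WT arrays were separate in young muscle but overlapped in old muscle.

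By role, and with 4.22% of all genes called, 1 of 8 carriers of ADP, ATP and phosphate fell over both ages in KO, as did 1 of 6 carriers listed under carboxylates and acylcarnitines, 2 of 9 amino acid carriers and 1 of 4 carriers of iron and glutathione. The roles are assignments, and the list of carboxylates and acylcarnitines also holds Slc25a34, which has no established substrate. None of 8 coenzyme and nucleotide carriers, 5 uncoupling proteins and their relatives, or 6 other carriers passed limma's test, although 4, 0 and 3 of them had an unadjusted p below 0.05. Among mitochondrial transport proteins outside the family, 4 of the 19 measured fell: Mpc1, a subunit of the pyruvate carrier (-0.25), the outer membrane channels Vdac1 (-0.29) and Vdac2 (-0.25), and Letm1, an ion exchanger (-0.25). Of 18 measured shuttle and matrix enzymes, 10 fell. The mitochondrial creatine kinase Ckmt2 differed by -0.95 ± 0.08 (adjusted p = 0.000102) and citrate synthase, Cs, by -0.45 ± 0.06 (adjusted p = 0.00196). Of 18 regulators, 4 fell and 1 rose. The oestrogen-related receptor gene Esrra differed by -0.83 ± 0.10 (adjusted p = 0.00139) and Perm1, a muscle regulator that is induced by PGC-1alpha, by -0.72 ± 0.14 (adjusted p = 0.0142).

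Between old and young muscle, averaged over both genotypes, 5 carriers rose and 6 fell, 23.9% of the 46, where 16.2% of all genes were called. The carriers that rose were Ucp3, Slc25a28, Slc25a5, Slc25a32 and Slc25a17. Those that fell were Slc25a15, Slc25a36, Slc25a39, Slc25a2, Slc25a44 and Slc25a51. The median difference was -0.01 over the carriers and 0.00 over all genes. Of the 11, 2 were also called by genotype over both ages, Slc25a39 and Slc25a15.

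In WT muscle 1 carrier was called between the ages, Ucp3, 2.17% against 3.62% of all genes, and 11 had an unadjusted p below 0.05. In muscle labelled KO, 3 rose (Ucp3, Slc25a28 and Slc25a17) and 4 fell (Slc25a15, Slc25a36, Slc25a2 and Slc25a51), 15.2% against 10.3% of all genes. These comparisons share no array, but a call in one and not in the other is not a difference: the interaction called none. The calls also moved with single arrays. Without KO old array 1, 4 carriers were called in WT muscle and 5 in KO muscle, with 1093 and 1335 of all genes, against 659 and 1868 with every array. Without KO old array 3, 2 carriers were called in WT and 11 in KO muscle, with 679 and 1998 of all genes. Without KO young array 1, 4 were called in KO muscle, without KO young array 2 there were 2, and without KO young array 3 there were 3, with 1377, 965 and 833 of all genes in the same order. Of these 7 calls, those of Ucp3 and Slc25a15 held in all 22 alternatives, among them a looser threshold that could not end a call.

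Ucp3 had the largest age difference of the 46 carriers when both genotypes were averaged. It read 11.81, 11.49 and 11.99 in KO old, 11.74, 11.84 and 12.28 in WT old, 10.27, 10.11 and 11.03 in KO young and 10.02, 10.07 and 10.21 in WT young muscle. Every old array was above every young array, and KO young array 3 was the highest of the young ones. The difference over both genotypes was 1.57 ± 0.15, 2.97-fold higher in old muscle (adjusted p = 6.6e-05). It was 1.29 ± 0.22 in KO muscle, 2.45-fold higher (adjusted p = 0.00411), and 1.85 ± 0.22 in WT muscle, 3.61-fold higher (adjusted p = 0.00128). The interaction, -0.56 ± 0.31, did not pass (adjusted p = 0.871), and the other Ucp3 probe set gave 1.26 in KO and 1.85 in WT muscle.

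Ucp1 was near background on every array, with 4.78, 5.62 and 4.93 in KO old, 5.05, 4.99 and 5.52 in WT old, 5.02, 5.04 and 4.94 in KO young and 4.90, 5.16 and 5.43 in WT young muscle. Its groups overlapped throughout, and the brown fat uncoupler was not well above background in any of them. Of the uncoupling proteins' relatives, the differences of Slc25a14, Slc25a27 and Slc25a30 did not pass in any comparison.

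Slc25a28, an iron importer also named mitoferrin 2, rose with age when both genotypes were averaged. It read 10.67, 10.11 and 10.07 in KO old, 10.35, 10.17 and 10.35 in WT old, 9.77, 9.63 and 9.59 in KO young and 9.78, 9.90 and 9.96 in WT young muscle. No old array overlapped a young one, and KO old array 1 was the highest. The difference was 0.52 ± 0.10 (adjusted p = 0.00419), and 0.62 ± 0.14 in KO muscle (adjusted p = 0.0170). Markers of red cell precursors also read higher in old muscle, with 2 of the 4 measured called, where 16.2% of all genes were called. Their summary level was 5.96 to 6.40 in KO old, 5.70 to 6.13 in WT old, 5.47 to 5.49 in KO young and 5.36 to 5.57 in WT young muscle. Of the 4 markers, 3 had a mean below the median signal, among them 1 of the 2 called. The other called marker, Alas2, differed by 1.23, old minus young. The part of red cell precursors in the iron carrier's result was not tested. Slc25a37, the importer best known from red cell precursors, did not pass (-0.11).

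Slc25a5, whose array values are given above, rose with age by 0.39 ± 0.09 (adjusted p = 0.00950), with old above young within each genotype. All 8 probe sets gave a positive difference, and 5 of the 7 others were called. The muscle form Slc25a4 did not pass on its brightest probe set, at a difference of 0.00 (adjusted p = 0.990).

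Slc25a17, a carrier of coenzyme A and related nucleotides in peroxisomes, read 7.95, 7.87 and 7.81 in KO old, 7.75, 7.67 and 7.71 in WT old, 7.64, 7.51 and 7.56 in KO young and 7.53, 7.29 and 7.54 in WT young muscle. Slc25a32, which carries folate and flavin, read 7.12, 6.93 and 6.90 in KO old, 6.83, 6.60 and 6.69 in WT old, 6.70, 6.50 and 6.53 in KO young and 6.73, 6.25 and 6.42 in WT young muscle. In KO muscle every old array was above every young one for both genes. The Slc25a32 arrays overlapped in WT muscle. The differences over both genotypes were 0.28 ± 0.06 for Slc25a17 (adjusted p = 0.00842) and 0.32 ± 0.09 for Slc25a32 (adjusted p = 0.0249). Neither is firm: the other Slc25a17 probe set gave -0.18, and the mean of each gene's probe sets gave adjusted p of 0.607 and 0.0793. The Slc25a32 call was also lost when 1 of 5 arrays was left out, WT young 2 or 3, KO young 2 or 3, or WT old 1 (adjusted p = 0.0547 to 0.0626).

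Slc25a15 fell with age by 0.59 on the log2 scale (adjusted p = 0.000762), with every old array below every young one. In KO muscle it fell by 0.75 (adjusted p = 0.00330), and its difference in WT muscle was -0.43 ± 0.12 (adjusted p = 0.0773). Slc25a39 fell by 0.41 over both genotypes (adjusted p = 0.00936), and 3 of its 4 other probe sets were called in the same direction.

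Slc25a36, a pyrimidine nucleotide carrier, read 10.48, 10.11 and 10.01 in KO old, 10.54, 10.33 and 10.17 in WT old, 10.73, 10.68 and 10.95 in KO young and 10.87, 10.47 and 10.70 in WT young muscle. Old and young overlapped in WT but not in KO muscle. The difference over both genotypes was -0.46 ± 0.10 (adjusted p = 0.00972).

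Slc25a51, the NAD+ importer, read 11.23, 11.36 and 11.28 in KO old, 11.40, 11.20 and 11.32 in WT old, 11.64, 11.63 and 11.60 in KO young and 11.54, 11.55 and 11.61 in WT young muscle. Every old array was below every young one, and the step was -0.30 ± 0.06 (adjusted p = 0.00366). Its 2 other probe sets did not point the same way, at -0.30 and 0.09, and their mean with the brightest lost the call (adjusted p = 0.0590).

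Slc25a44, which imports branched-chain amino acids, read 8.46, 8.50 and 8.22 in KO old, 8.05, 8.54 and 8.17 in WT old, 8.62, 8.81 and 8.80 in KO young and 8.59, 8.55 and 8.55 in WT young muscle. Every old array was below every young one, though WT old array 2 and KO old array 2 came close to them. The difference was -0.33 ± 0.09 (adjusted p = 0.0219), and it was lost without KO young array 2 or 3 or WT old array 1 or 3 (adjusted p = 0.0520 to 0.0557) and with the mean of its probe sets (adjusted p = 0.0707). Slc25a2, a second ornithine carrier, passed as well (adjusted p = 0.0110), but at 4.23, 3.90 and 4.40 in KO old, 4.44, 4.37 and 4.42 in WT old, 4.87, 4.69 and 4.57 in KO young and 4.75, 4.50 and 4.75 in WT young muscle all its signals were in the background range, and no fold is given.

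**Figure D4:**
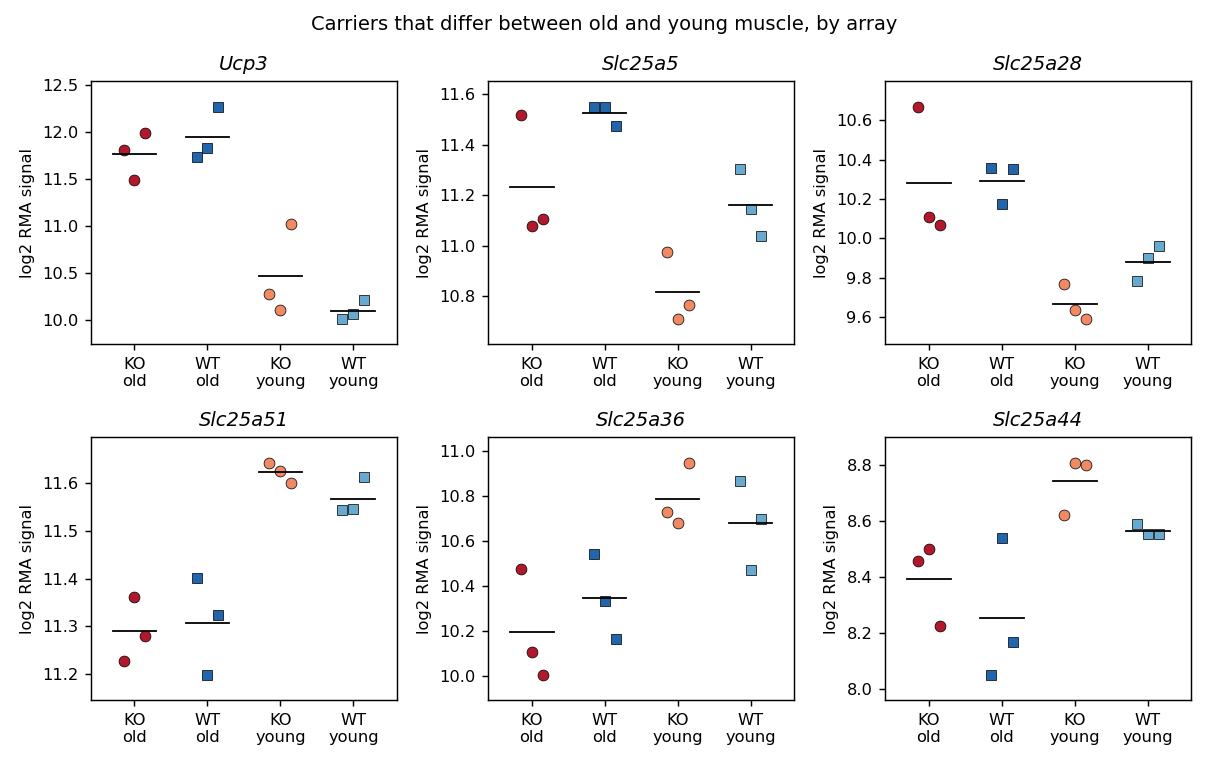
Log2 RMA signal on each array for 6 carriers called between old and young muscle, 3 higher and 3 lower in old muscle, with horizontal lines at the group means and a separate scale in each panel. The Ucp3 panel spans the widest range, with all old arrays at or above 11.49 and all young arrays at or below 11.03.

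By role, the age calls over both genotypes were spread over 5 of the 7 lists. With 16.2% of all genes called, counts such as 1 of 8 or 1 of 5 are near that share. Of 8 coenzyme and nucleotide carriers 2 rose and 2 fell. Of 9 amino acid carriers 3 fell, all named above. Of 4 carriers of iron and glutathione 1 rose and 1 fell, 1 of 8 carriers of ADP, ATP and phosphate rose, and 1 of the 5 uncoupling proteins and relatives rose. Carboxylate and acylcarnitine carriers and the remaining carriers gave 0 calls of 6 each by limma, and 0 of either list had an unadjusted p below 0.05. Slc25a12 and Slc25a11 did not pass between the ages on their brightest probe sets, at -0.04 and 0.01. The 2 other Slc25a12 probe sets were lower in old muscle, at -0.53 and -0.85, and both were called. Among the markers of other cell types, 2 of 4 endothelial markers fell with age and 1 of 9 macrophage markers, Cd68, rose. The muscle fibre list had 1 of 11 called, the slow troponin gene Tnni1, which rose by 0.73 (adjusted p = 0.0206). The other slow fibre genes, Tnnt1 at 0.48 (adjusted p = 0.0594) and Myh7 at 0.35 (adjusted p = 0.246), did not pass. Of the whole list, 5 of 11 differences were negative, with a median of 0.00. The part of these cell types and of fibre type in the carriers' age differences was not tested.

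Some carriers differed more within a group than between groups. Slc25a1, the citrate carrier that supplies the cytosol for fat synthesis, read 9.52, 9.45 and 7.46 in KO old, 7.47, 7.21 and 7.68 in WT old, 7.35, 7.68 and 7.56 in KO young and 7.68, 7.46 and 7.51 in WT young muscle. KO old arrays 1 and 2 stood apart, and KO old array 3 lay among the other groups. Slc25a10, the dicarboxylate carrier, showed the same pair on its brightest probe set, with 9.04, 8.97 and 8.18 in KO old, 8.27, 8.15 and 8.42 in WT old, 8.06, 8.35 and 8.07 in KO young and 8.23, 8.45 and 8.39 in WT young muscle. Its other probe set, close to the median signal, did not show the pair, at 6.19, 6.60 and 6.13 in KO old muscle.

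The interaction was 1.38 ± 0.57 for Slc25a1 (unadjusted p = 0.0337, adjusted p = 0.871) and 0.64 ± 0.27 for Slc25a10 (unadjusted p = 0.0334, adjusted p = 0.871). The other Slc25a10 probe set gave -0.06. Single arrays set the Slc25a1 value. The interaction was 1.02 without KO old array 1 (adjusted p = 0.929), 1.06 without KO old array 2 (adjusted p = 0.734) and 2.05 without KO old array 3 (adjusted p = 0.00615), where 37 of all genes were called. White adipocyte markers, of which 4 of 6 were measured and 1 had a mean below the median signal, had the same 2 arrays highest when averaged. The dim one, Lep, read 5.64, 6.82 and 5.71 in KO old muscle. The mean level of the markers was 10.3, 9.75 and 7.28 in KO old, 7.35, 7.10 and 8.10 in WT old, 8.12, 8.78 and 7.72 in KO young and 8.16, 8.84 and 8.78 in WT young muscle. Adipoq, the fat cell hormone adiponectin, read 13.12, 12.47 and 9.25 in KO old against 9.38, 8.89 and 10.28 in WT old muscle. The part of fat cells in the Slc25a1 and Slc25a10 values was not tested.

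The within-group SD was 0.684 for Slc25a30, a relative of the uncoupling proteins best known from kidney, 0.605 for Slc25a1 and 0.491 for Slc25a25, a calcium-regulated ATP-Mg/phosphate carrier. Slc25a30 read 8.87, 10.35 and 10.13 in KO old, 10.98, 10.35 and 10.12 in WT old, 10.87, 10.09 and 8.87 in KO young and 9.68, 9.42 and 9.58 in WT young muscle. The KO young arrays alone reached from the lowest to near the highest value, and no comparison called the gene. Slc25a25 read 8.95, 9.56 and 9.01 in KO old, 9.83, 8.72 and 9.66 in WT old, 10.14, 9.49 and 8.80 in KO young and 9.61, 9.32 and 9.16 in WT young muscle, with every group overlapping.

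**Figure D5:**
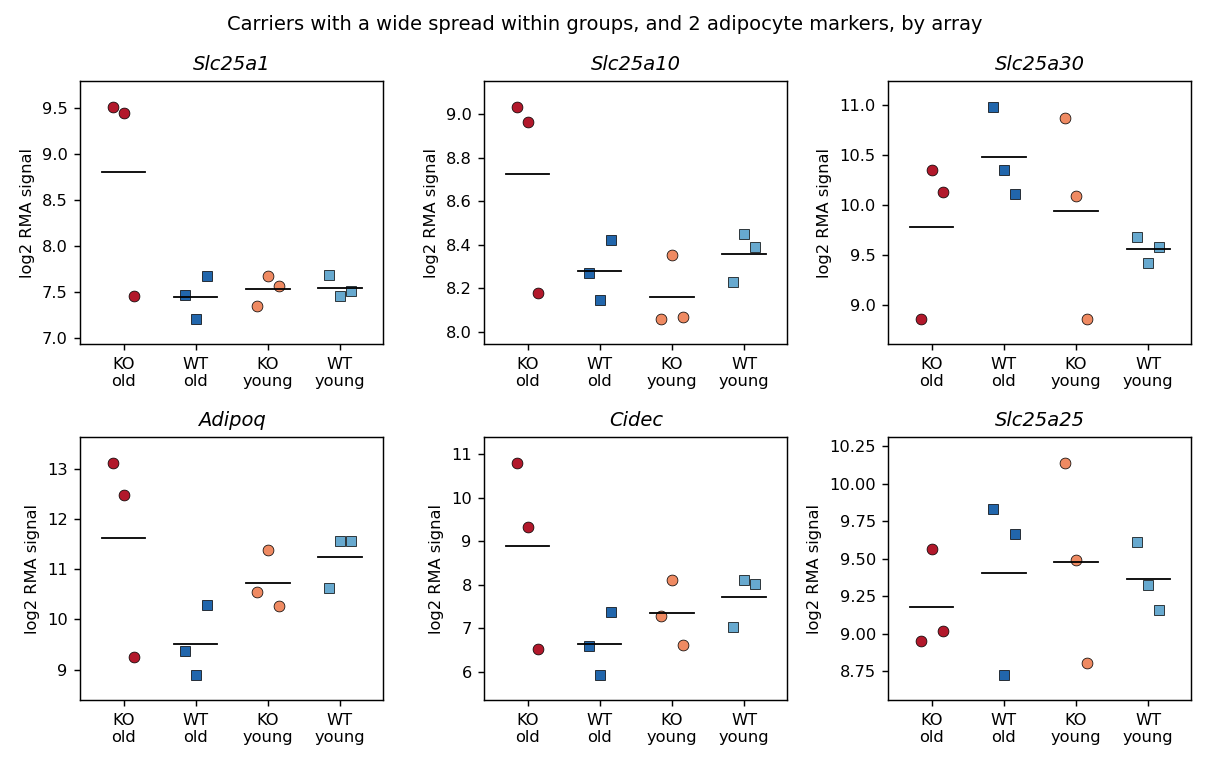
Log2 RMA signal on each array for Slc25a30, Slc25a1 and Slc25a25, the carriers with the widest spread within groups, by group and with horizontal lines at the group means. Slc25a10 and the white adipocyte markers Adipoq and Cidec are shown for comparison. KO old arrays 1 and 2 are high together in Slc25a1, Slc25a10, Adipoq and Cidec, while Slc25a30 and Slc25a25 vary inside most groups.

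Macrophage markers, 9 measured, read higher in KO. Their mean level was 8.32 to 8.67 in KO old, 7.35 to 8.23 in WT old, 7.53 to 8.15 in KO young and 7.44 to 7.83 in WT young muscle. Of the 9, 1 was called over both ages, Cd68 (1.28 ± 0.29, adjusted p = 0.0305), where 4.22% of all genes were called. All 4 endothelial and all 6 lymphocyte markers measured read lower in KO over both ages, with medians of -0.25 and -0.25, and 0 of either list were called. Of all genes, 53.3% had a negative difference in this comparison. Lymphocyte markers averaged 7.27 on WT young array 1, against 6.25 and 6.19 on the other WT young arrays. The part of these cell types in the carriers' genotype differences was not tested. The muscle fibre list had 0 of 11 genes called by genotype in limma's test over both ages. The 3 with an unadjusted p below 0.05 were its markers of slow fibres, chosen for mention after their values were seen, and all read higher in KO. The slow myosin gene Myh7 differed by 0.60 (adjusted p = 0.0918), and the slow troponin genes Tnni1 and Tnnt1 by 0.53 and 0.44 (adjusted p = 0.125 and 0.123). Of the whole list, 5 of 11 differences were negative. Other genes of the list, such as Acta1 and Ckm at means of 15.94 and 15.86, lay just under the highest value on any array, 15.95. That limits what they can show. The part of fibre type in the carriers' genotype differences was not tested. Of the 46 carriers, 14 were called in at least 1 comparison and 32 in none. That share was not counted for all genes, of which 16.2% were called in the averaged age comparison alone.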

How the data were processed

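The deposited values were log2 signals of 12 arrays. Per the submitters' processing notes, the authors used RMA and affy, with versions not stated. RMA subtracts background, makes the arrays' distributions alike and summarises the probes of a probe set, which shrinks differences near background and hides a shift shared by most genes. A genome build is not given in the sources used here. The columns were matched to samples by accession and the samples to groups by their source labels. Of 45101 probe sets, 64 were controls, 34958 name 1 gene, 932 several and 9211 none. Per gene, the probe set with the highest mean was kept (18194 genes).

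A model of 4 group means was fitted to all genes with limma 3.58.1 in R 4.3.3 (lmFit and eBayes, 8 residual degrees of freedom), two-sided, for 7 comparisons, with Benjamini-Hochberg adjustment within each and a threshold of 0.05. The fit was tested on simulated data. With 3 arrays in a group, the number of arrays limits the precision. Array values are printed for members called in any comparison, for the 3 smallest p-values of each comparison, and for Ucp1, Ucp3, Slc25a3, Slc25a4, Slc25a5 and Slc25a20. Slc25a25, Slc25a30, Slc25a34 and Slc25a13 were added after their values were seen. The members, role lists, marker lists and rules were chosen with earlier results of these data known. Alternatives covered the probe set rule, adjustment, scaling, variance model, array weights, a signal minimum, the threshold and leaving out arrays.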

Additional observations from a re-analysis of the deposited data

Results flagged for a closer look

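These results come from data outside the main measurement, the dimmer probe sets of 5 carriers. In each, a dimmer probe set passed an adjusted p of 0.05 in a comparison where the gene's brightest one did not. The dimmer ones were fitted and adjusted among all probe sets except the controls, and the brightest ones among the 18194 genes. The adjusted p-values set side by side here therefore come from different fits. With 3 arrays in a group, no array was tested as an outlier, and no carrier passed the interaction test. The reasons for the disagreements were not tested.

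Slc25a4, the muscle ADP/ATP exchanger, was lower in KO on its dimmer probe set by limma, with differences of -0.57 over both ages (adjusted p = 0.00688) and -0.78 in old muscle (adjusted p = 0.0175). The same probe set gave -0.57, old minus young, in KO muscle (adjusted p = 0.0149) and -0.36 over both genotypes (adjusted p = 0.0160).

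Slc25a12, not called with age on its brightest probe set, was lower in old muscle on both others. One read 8.77, 9.36 and 9.85 in KO old, 10.44, 10.47 and 10.34 in WT old, 10.48, 10.48 and 10.51 in KO young and 10.88, 10.96 and 11.04 in WT young muscle. Its KO old arrays lay lowest, and it differed by -1.16 in KO muscle (adjusted p = 0.00366) and by -0.85 over both genotypes (adjusted p = 0.00140). The other differed by -0.70 in KO muscle (adjusted p = 0.0296) and by -0.53 over both genotypes (adjusted p = 0.0143).

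Slc25a29, a carrier of basic amino acids, differed by -0.22 between KO and WT on its brightest probe set, which did not pass (adjusted p = 0.0851). Of its 4 other probe sets, 3 passed over both ages, at -0.41, -0.39 and -0.37 (adjusted p = 0.0374, 0.0246 and 0.0222).

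Slc25a20, the acylcarnitine carrier, was higher in old muscle on its other probe set, at 0.28 over both genotypes (adjusted p = 0.00907). Slc25a44, the branched-chain amino acid carrier, was lower in KO on 1 of its other probe sets, at -0.51 over both ages (adjusted p = 0.0338), where the brightest gave 0.16. A further Slc25a44 probe set gave -0.39, old minus young, in KO muscle (adjusted p = 0.0486).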

How the results depend on the processing

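Up to 22 alternatives were run for each result. None of them used a dimmer probe set alone, and some dimmer ones pointed the other way, as given above for Slc25a17, Slc25a51 and Slc25a10. Of 35 named carrier differences 0 reversed under these alternatives, and of 26 that passed, 14 passed under every alternative run. These were Ucp3 with age in KO, in WT and on average, Slc25a15 with age in KO and on average, the average age differences of Slc25a39, Slc25a36, Slc25a5, Slc25a28 and Slc25a2, and the average genotype differences of Slc25a12, Slc25a11, Slc25a39 and Slc25a3. For Slc25a2 20 alternatives were run: its mean lay under the signal minimum, so that alternative left it out and could not end its call. The threshold of 0.10 is looser than 0.05, so it could not end the call of any carrier. Slc25a11, Slc25a28 and Slc25a2 have 1 probe set each, so averaging over probe sets left their own signals unchanged and hardly tested their calls.

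Counts of carriers called are given with the calls over all genes under the same setting, which moved as well. Between KO and WT over both ages 5 carriers were called (768 of all genes). This became 9 at a threshold of 0.10 (1724), 10 with array weights (1936) and 9 without KO old 1 and WT young 1 (1314), a choice made after seeing the data, and ranged over 4 to 7 without single arrays (309 to 1007). In old muscle 2 were called (241), against 5 at 0.10 (800), 4 with the signal minimum (388), 4 with trended robust variances (389) and 0 in a fit to the compared groups (0). Without single arrays it was 1 to 7 (28 to 644), with 7 without KO old 3 and 1 without any of the WT old arrays. In young muscle 0 were called (35), against 6 with array weights (1019) and 1 without both arrays named (216), with 0 to 1 without single arrays (1 to 173). The interaction gave 0 (0), and 0 to 1 without single arrays (0 to 37).

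With age in WT muscle 1 carrier was called (659 of all genes), against 4 at 0.10 (1112), 9 with array weights (2451), 3 without both arrays (816) and 3 in a fit to the compared groups (809), with 1 to 4 without single arrays (208 to 1093). In KO muscle 7 were called (1868), against 13 at 0.10 (2946) and 2 in a fit to the compared groups (617), with 2 to 11 without single arrays (833 to 1998). Over both genotypes 11 were called (2954), with 9 to 14 without single arrays (2186 to 3033). The causes of these moves were not tested beyond the fewer arrays that some fits use. A fit to the compared groups was not run for the averaged comparisons and the interaction, which use all groups.

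No paired analysis was possible because the replicate numbers follow accession order and the labels pair no samples. Signals below the median limit what 9 carriers can show.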

Other observations

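Age differences of other mitochondrial transport proteins, enzymes and regulators are given here by limma over both genotypes, old minus young, where 16.2% of all genes were called. Of 19 transport proteins measured, 2 rose and 2 fell, which is near that share. Micu2, a gatekeeper of the calcium uniporter, differed by 0.81 ± 0.07 (adjusted p = 2.7e-05) and Tspo, an outer membrane protein, by 0.54 ± 0.09 (adjusted p = 0.00161). Sfxn3, a serine transporter of the sideroflexin family, fell by 0.40 (adjusted p = 0.00675), and Mtch2, an outer membrane relative of the carriers, fell by 0.17 (adjusted p = 0.0496). Of 18 shuttle and matrix enzymes, 7 fell and 1 rose. The matrix adenylate kinase Ak3 fell by 0.72 (adjusted p = 1.5e-05), and Gpd1 and Gpd2, the 2 enzymes of the glycerol phosphate shuttle, fell by 0.51 and 0.52 (adjusted p = 0.0327 and 0.0319). Oat, ornithine aminotransferase, rose by 0.39 ± 0.08 (adjusted p = 0.00448), while Slc25a15, the carrier of its substrate, fell.

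Of 18 regulators, 4 rose and 3 fell with age. Ppargc1a differed by 0.63 ± 0.16 (adjusted p = 0.0199), and the receptor gene Esrrg by 0.58 ± 0.15 (adjusted p = 0.0192). Thra, a thyroid hormone receptor, fell by 1.07 (adjusted p = 6.1e-05), and Esrra fell by 0.35 (adjusted p = 0.0321).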
